A study of Mus musculus with 24 samples.

Results

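The genes described here are 45 members of the cell division machinery, 21 that act in DNA replication and the entry into S phase, 22 that act in mitosis, and 2 of the G1 growth signal (Ccnd1 and Cdk4). They were followed in MLO-Y4 cells, an osteocyte-like mouse line, on 24 Affymetrix arrays of total RNA. A member was taken from the row of the array table that carried its symbol and no other, and from the brightest such row where there were several. Of the 45, 44 had such a row and all 44 passed a filter on dim rows, among 14489 genes tested. No row carried the single symbol Ccnb1, so this cyclin was not analysed here. Pcna had a pair of rows that differed by at most 0.02 (log2) on any array, so its value may hold signal from a near-identical copy and is uncertain.

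All dishes received an antibody for 30 min at 37 °C in 5% CO2, diluted 1:50. It was either an irrelevant rabbit IgG or Cx43(E2), given at 28 µg/ml, which blocks the hemichannels formed by connexin 43. Cells of each antibody then stayed in the incubator (the control, C) or were placed at one of the 1g, 2g and ug positions of a platform that the labels call HMGE (high magneto-gravitational environment), for a time not given in the sources used here. Each of the 8 groups held 3 arrays, numbered 1 to 3 in the titles, so the 4 arrays of one antibody and number form a title set, named IgG 1 to IgG 3 and E2 1 to E2 3. No label says that the numbers mark separate cultures, so p-values measure the spread between these arrays, which may be technical.

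MLO-Y4 is a single immortalised line, made from a mouse that carried the SV40 large T antigen under the osteocalcin promoter. T antigen binds the Rb and p53 proteins, which otherwise restrain the cell cycle, so cycling in this line is no measure of osteocytes in bone, which do not divide. Of the bone cell markers, Pdpn (podoplanin, an early osteocyte protein) averaged 12.70 and Gja1 (connexin 43 itself) 11.68 on the log2 intensity scale. Dmp1, Phex and Mepe, markers of later osteocytes, averaged 4.60 to 4.74 and did not pass the filter, nor did Sp7 and Ibsp. The osteocyte markers Sost and Fgf23 averaged 7.07 and 7.04 and passed, as did Alpl (10.34), Col1a1 (9.77) and Col1a2 (7.59). Passing the filter does not by itself show expression. Of 8 endothelial markers 6 passed too, at averages from 5.82 (Pecam1) to 6.65 (Flt1). Sost, Fgf23 and Col1a2 lay below the median level of 8.41 over all genes tested.

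In a dividing cell the G1 cyclins and Cdk4 lead to phosphorylation of Rb, which frees E2F factors to switch on the genes for licensing origins and copying DNA. A later wave, driven through B-Myb and FoxM1 at elements called CHR and CCAAT boxes, raises the cyclins, kinases, checkpoint proteins and motors of mitosis. The anaphase-promoting complex then ends mitosis. RNA of the first group therefore peaks around S phase and RNA of the second in G2 and mitosis. In bulk RNA a smaller share of cells in a phase and less RNA per cell in that phase cannot be told apart.

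The promoters of members show both kinds of element, and 6 are printed to let them be read beside the values. RefSeq windows (build GRCm38.p6) that run from 250 bases before to 50 bases after the transcript start were found for 37 of the 45 members, as 38 windows, and Aurkb, Ccna2, Ccnd1, Ccne2, Cdc25c, Gins1, Kif20a and Mcm4 were not in the table. Letters were searched on both strands. For the E2F site they were TTTCCCGC, TTTCGCGC, TTTGCCGC and TTTGGCGC, for the CHR TTTGAA and TTCGAA, and for the CCAAT box CCAAT. Capitals mark every match. The first 3 sequences are the mitotic members with a CHR match and the widest range between title sets, Mki67 (chr7:135716330-135716629, minus strand), Cdc20 (chr4:118437294-118437593, minus strand) and Plk1 (chr7:122159185-122159484, plus strand).
Mki67: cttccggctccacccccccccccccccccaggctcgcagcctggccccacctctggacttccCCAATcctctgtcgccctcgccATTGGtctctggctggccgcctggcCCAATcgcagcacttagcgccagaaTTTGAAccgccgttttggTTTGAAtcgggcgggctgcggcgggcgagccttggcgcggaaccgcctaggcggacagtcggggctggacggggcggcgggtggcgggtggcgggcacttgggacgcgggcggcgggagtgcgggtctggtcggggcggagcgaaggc
Cdc20: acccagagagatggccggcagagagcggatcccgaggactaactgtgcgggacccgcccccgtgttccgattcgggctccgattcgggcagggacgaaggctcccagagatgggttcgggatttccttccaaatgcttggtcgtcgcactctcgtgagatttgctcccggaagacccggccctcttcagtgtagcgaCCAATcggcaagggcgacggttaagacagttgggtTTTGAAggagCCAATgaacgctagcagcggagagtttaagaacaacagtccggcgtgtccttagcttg
Plk1: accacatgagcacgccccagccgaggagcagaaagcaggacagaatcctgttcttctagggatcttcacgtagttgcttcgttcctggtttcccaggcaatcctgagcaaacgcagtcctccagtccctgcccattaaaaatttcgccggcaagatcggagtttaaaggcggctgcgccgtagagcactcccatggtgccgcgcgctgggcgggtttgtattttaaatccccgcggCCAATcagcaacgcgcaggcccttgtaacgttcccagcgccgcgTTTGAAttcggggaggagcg
The other 3 are the replication members with an E2F match and the widest range, Pola1 (chrX:93632106-93632405, minus strand), Cdc6 (chr11:98907901-98908200, plus strand) and Mcm7 (chr5:138171834-138172133, minus strand).
Pola1: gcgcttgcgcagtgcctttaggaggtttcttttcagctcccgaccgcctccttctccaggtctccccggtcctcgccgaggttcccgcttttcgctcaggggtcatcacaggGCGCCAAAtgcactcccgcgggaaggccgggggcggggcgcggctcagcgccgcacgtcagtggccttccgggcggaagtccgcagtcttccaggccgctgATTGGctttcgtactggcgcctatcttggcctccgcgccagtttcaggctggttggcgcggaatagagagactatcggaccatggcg
Cdc6: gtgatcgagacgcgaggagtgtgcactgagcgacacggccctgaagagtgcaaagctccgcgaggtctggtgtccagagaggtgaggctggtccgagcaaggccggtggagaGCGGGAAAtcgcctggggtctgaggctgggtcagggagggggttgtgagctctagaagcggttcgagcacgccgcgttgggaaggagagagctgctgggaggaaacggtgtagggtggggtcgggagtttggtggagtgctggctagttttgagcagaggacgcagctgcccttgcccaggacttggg
Mcm7: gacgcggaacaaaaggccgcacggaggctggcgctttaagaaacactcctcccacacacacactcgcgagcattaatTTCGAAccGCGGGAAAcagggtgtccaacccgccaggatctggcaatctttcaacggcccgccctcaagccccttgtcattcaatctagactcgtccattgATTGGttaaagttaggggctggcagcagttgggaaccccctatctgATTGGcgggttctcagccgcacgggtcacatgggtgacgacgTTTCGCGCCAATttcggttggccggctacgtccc
In Mki67 the CHR letters lie 116 and 98 bases before the start, downstream of 3 CCAAT boxes. In Cdc20 a CCAAT box at 53 bases before the start precedes a CHR match at 18 bases, and in Plk1 the CHR letters begin at base 31 of the transcript. The E2F letters begin 138 bases before the start in both Pola1 and Cdc6. The Mcm7 window printed holds a pair of E2F matches, at 165 bases before the start and at base 17 after it. The second of them shares letters with a CCAAT box. The other Mcm7 window, not printed, held a CCAAT box 47 bases before its start and no E2F or CHR letters.

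CHR letters were found in 13 of 18 mitotic windows (72.2%), in 3 of 19 replication windows (15.8%) and in 19.2% of all 32851 windows. E2F letters were found in 7 of 19 replication windows (36.8%), in 1 of 18 mitotic windows, that of Cdk1, and in 2.26% of all windows. CCAAT letters were common in both groups, in 16 of 18 mitotic and 13 of 19 replication windows, against 37.4% of all. Among genes that passed the filter the shares were 13.7% for CHR, 3.59% for E2F and 36.7% for CCAAT. A match is a run of letters and not a measured site.

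**Figure D1:**
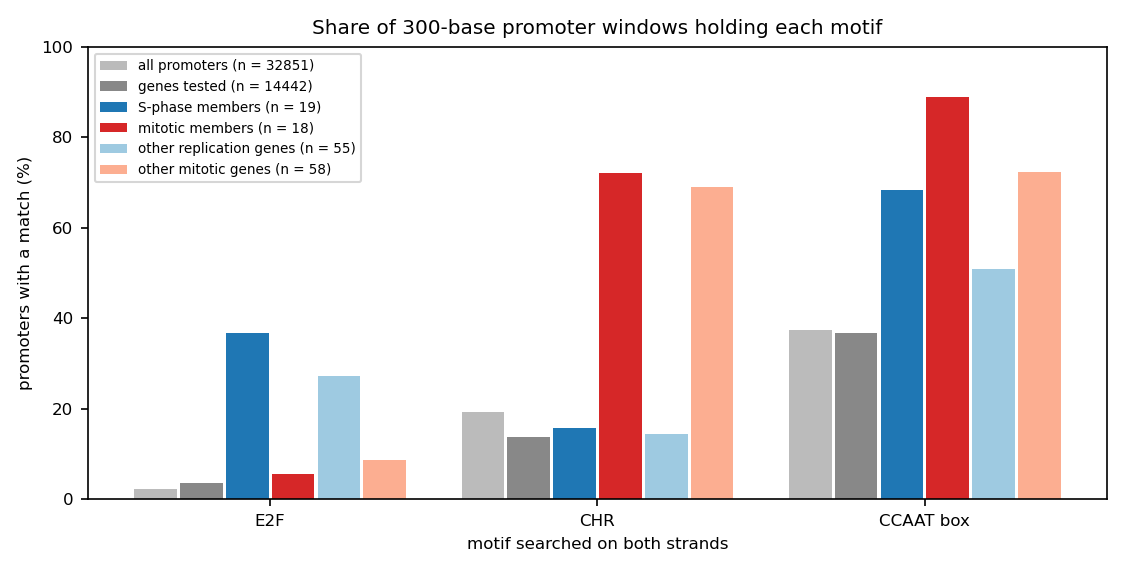
Share of promoter windows (%) that hold each motif, for all windows, genes tested, members and the other replication and mitotic genes. CHR bars are highest in the mitotic lists (72.2% of member windows against 19.2% of all windows) and E2F bars in the replication lists (36.8% against 2.26%).

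Most members spread more between title sets than across the environments within a set, as counted below. Most S-phase and most mitotic members took opposite orders. Of the 21 S-phase members, 12 had their 3 highest set means in IgG 1, IgG 2 and E2 3, an order shared by 20.1% of all genes tested. Of the 21 measured mitotic members, 13 had their 3 highest set means in the other 3 sets, IgG 3, E2 1 and E2 2, an order shared by 16.9% of all genes. No mitotic member took the first order and no S-phase member the second. Ccnd1 and Cdk4 both took the order of the S-phase genes. These 2 orders were also the most frequent ones over all genes. The first principal component of all genes tested (the main axis of variation, 44.6% of the variance) made the same split. It ran from -22.7 to -6.9 on the arrays of IgG 1, IgG 2 and E2 3 and from 3.7 to 26 on the others. Members measured on the same arrays are not independent of one another, and what differed between the title sets is not given by the labels.

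**Figure D2:**
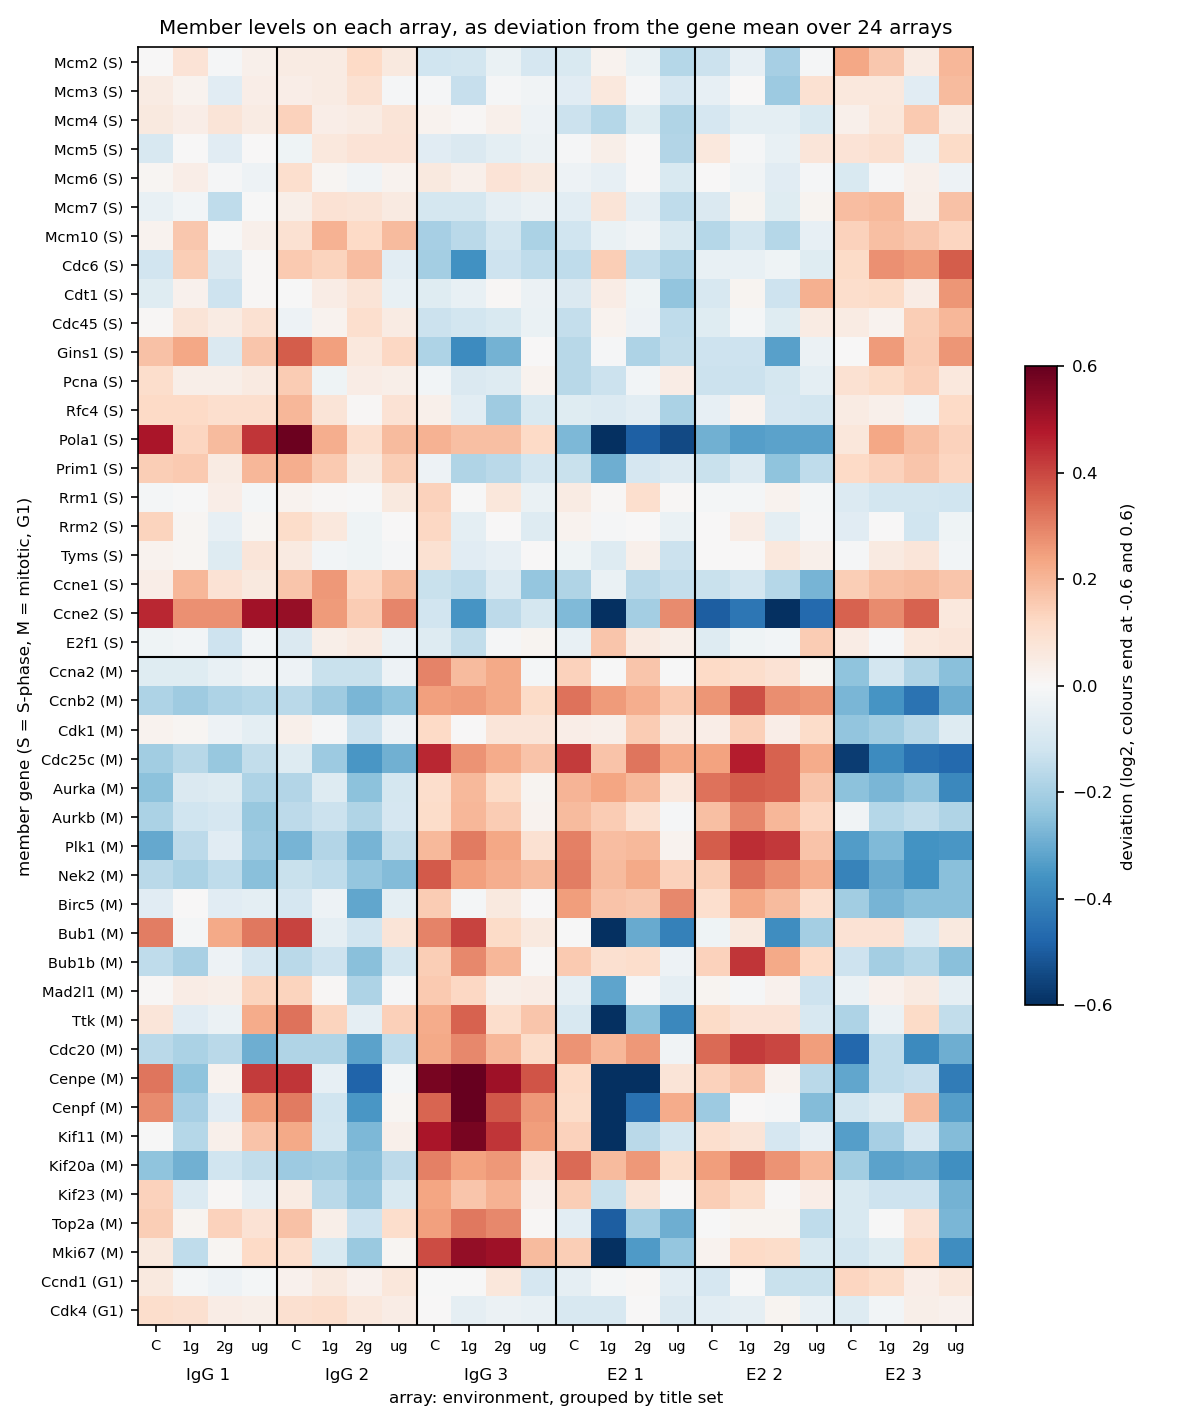
Deviation (log2) of each of 44 members (rows) from its mean over the 24 arrays (columns, grouped by title set). The S-phase rows are mostly red in IgG 1, IgG 2 and E2 3, and 13 mitotic rows are red in IgG 3, E2 1 and E2 2. The array of E2 1 at 1g is dark blue for Cenpe, Cenpf, Bub1, Ttk, Kif11, Mki67, Pola1 and Ccne2.

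Averaged over the 21 S-phase members, the deviation from the gene means was 0.06 ± 0.039 in IgG 1, 0.093 ± 0.032 in IgG 2 and 0.099 ± 0.019 in E2 3 (log2, SD, n = 4 arrays). It was -0.064 ± 0.034 in IgG 3, -0.097 ± 0.021 in E2 1 and -0.091 ± 0.041 in E2 2. The 12 arrays of the first 3 sets lay between 0.002 and 0.137, and the 12 others between -0.144 and -0.038, so they did not overlap. For the 21 mitotic members the means were -0.051 ± 0.048, -0.094 ± 0.108 and 0.228 ± 0.088 in IgG 1 to IgG 3. They were -0.013 ± 0.155, 0.132 ± 0.072 and -0.202 ± 0.048 in E2 1 to E2 3, and here the arrays of several sets overlapped.

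Set against the other sets of its antibody at the same environment, E2 3 exceeded E2 1 by 0.20 ± 0.04 and E2 2 by 0.19 ± 0.03 in the S-phase mean (SD over 4 environments). IgG 3 lay below IgG 2 by a difference of -0.16 ± 0.04 and below IgG 1 by -0.12 ± 0.06. The mitotic mean ran the other way, at 0.32 ± 0.14 for IgG 3 minus IgG 2, 0.28 ± 0.13 for IgG 3 minus IgG 1 and -0.33 ± 0.04 for E2 3 minus E2 2. For E2 3 minus E2 1 it was -0.19 ± 0.18, a difference about as large as its spread. The SD between set means exceeded the SD within sets in 18 of 21 mitotic and 14 of 21 S-phase members, against 48.3% of all genes. The median ratio of the 2 SDs was 1.76 in mitotic members, 1.38 in S-phase members and 0.977 over all genes.

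**Figure D3:**
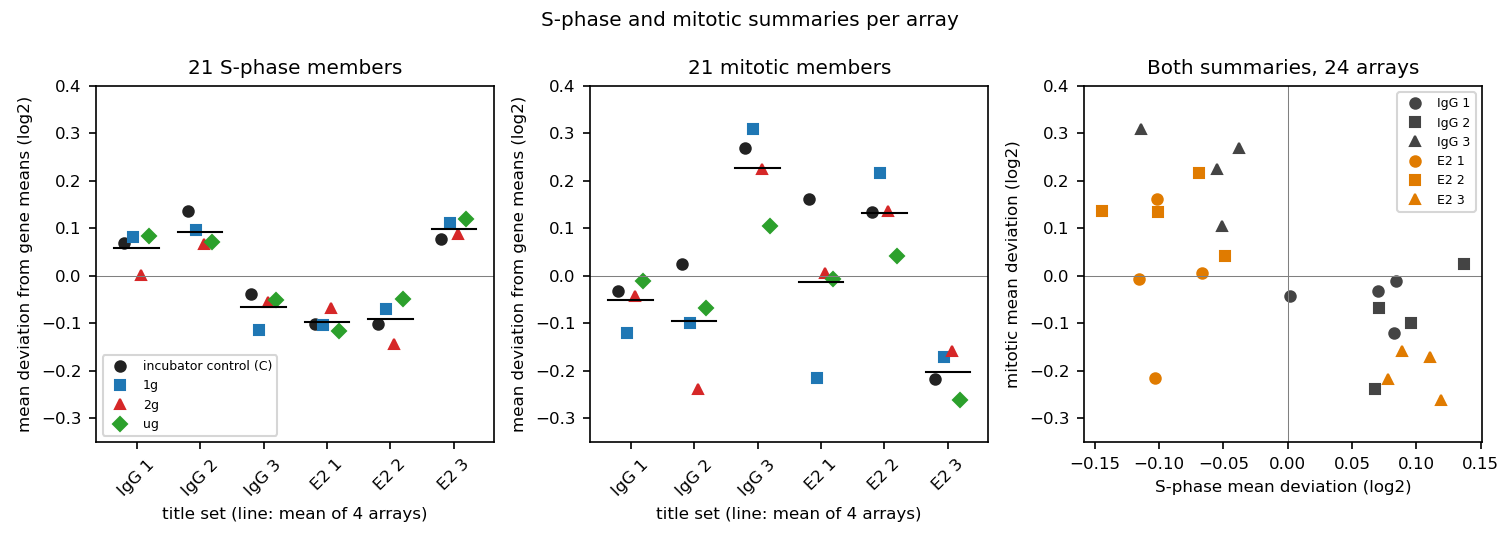
Mean deviation (log2) of the 21 S-phase (left) and 21 mitotic (middle) members on each array, by title set, with symbols for the environment and a line at the mean of 4 arrays; the right panel sets both against each other. S-phase means of IgG 1, IgG 2 and E2 3 (0.002 to 0.137) lie above those of the other sets, and the mitotic mean is highest in IgG 3 and lowest in E2 3.

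Among the licensing genes, which load and start the replicative helicase, the widest range of set means was that of Cdc6, the loader of the MCM ring. Its set means were 8.53, 8.65 and 8.33 in IgG 1 to IgG 3 and 8.46, 8.50 and 8.80 in E2 1 to E2 3. All 4 arrays of E2 3 (8.66 to 8.91) lay above those of E2 2 (8.47 to 8.52), while E2 1 reached 8.69 on its 1g array. Gins1, a subunit of the GINS complex of the helicase, stood at 8.78, 8.86 and 8.44 in the IgG sets and at 8.53, 8.50 and 8.82 in the E2 sets. Mcm10, which helps to start the helicase, was between 9.60 and 9.81 on every array of IgG 1, IgG 2 and E2 3 and between 9.40 and 9.58 on the other 12 arrays. The MCM ring subunits varied less, with ranges of set means from 0.10 for Mcm6 to 0.26 for Mcm2. Mcm4 was the ring subunit whose 12 arrays of IgG 1, IgG 2 and E2 3 lay above the 12 others, with a gap that rounds to 0.00. The licensing factor Cdt1, which Cdc6 works with, had set means of 10.36 to 10.57, and the helicase subunit gene Cdc45 of 10.29 to 10.48.

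Among the genes of DNA synthesis, Prim1, the primase subunit that makes the RNA primer, gave 10.62 to 10.79 on the arrays of IgG 1, IgG 2 and E2 3 and 10.28 to 10.54 on the rest, with no overlap. Pola1, the catalytic subunit of polymerase alpha that extends this primer, followed another order. Its arrays read 8.62 to 9.11 in IgG 1 and IgG 2, 8.64 to 8.73 in IgG 3 and 8.59 to 8.75 in E2 3, but 7.43 to 8.25 in E2 1 and 8.19 to 8.23 in E2 2. Pola1 was thus low in both E2 1 and E2 2 and between 8.59 and 9.11 elsewhere. Pcna, the sliding clamp, had set means of 12.49, 12.49 and 12.40 in the IgG sets and of 12.37, 12.33 and 12.54 in the E2 sets, and Rfc4, a subunit of the clamp loader, of 11.66 to 11.87.

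The genes of nucleotide supply did not share the S-phase order. Rrm1 and Rrm2, the large and small subunits of ribonucleotide reductase, had set means of 11.88 to 12.02 and 12.43 to 12.51, and both were lowest in E2 3. Tyms, thymidylate synthase, was the least variable member, with set means of 10.80 to 10.87.

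Of the regulators of S-phase entry, Ccne2 (cyclin E2) had the joint widest range of the S-phase genes with Pola1, at 0.91. Its arrays read 9.93 to 10.16 in IgG 1, 9.81 to 10.18 in IgG 2 and 9.30 to 9.55 in IgG 3. In the E2 sets they read 8.90 to 9.94 in E2 1, 8.94 to 9.22 in E2 2 and 9.72 to 10.01 in E2 3. The ug array of E2 1, at 9.94, was the single one of its set that reached the range of the higher sets. Ccne1 (cyclin E1) split without overlap, at 11.20 to 11.42 on the arrays of IgG 1, IgG 2 and E2 3 and 10.88 to 11.12 on the others. E2f1, the factor at the head of this programme, did not share that order, with set means between 11.09 and 11.20. In all, 4 of 21 S-phase members (Mcm4, Mcm10, Prim1 and Ccne1) had every array of IgG 1, IgG 2 and E2 3 above every other array, against 4.11% of all genes.

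Among the mitotic cyclins and the Cdk1 group, Ccnb2 (cyclin B2) read 11.48 to 11.52 in IgG 1, 11.42 to 11.53 in IgG 2 and 11.25 to 11.42 in E2 3. It read 11.81 to 11.95 in IgG 3, 11.85 to 12.02 in E2 1 and 11.96 to 12.08 in E2 2, so that 0.28 lay between the lowest of these and the highest of the former. Cdc25c, the phosphatase that activates Cdk1, ran from 7.82 to 8.31 in IgG 1, IgG 2 and E2 3 and from 8.56 to 8.86 in the other sets. Ccna2 (cyclin A2) split in the same way by 0.01. Cdk1 itself varied less, with set means of 11.94, 11.92 and 12.02 in the IgG sets and 12.03, 12.04 and 11.78 in the E2 sets, and its arrays overlapped.

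The mitotic kinases took the order of the cyclins. Plk1, which drives mitotic entry and spindle assembly, had set means of 11.34, 11.31 and 11.73 in the IgG sets and 11.71, 11.88 and 11.20 in the E2 sets. Nek2, a kinase of centrosome separation, had set means of 9.94, 9.94 and 10.39 in the IgG sets and 10.35, 10.37 and 9.80 in the E2 sets, without overlap between arrays. Aurka and Aurkb, the Aurora kinases of the spindle poles and of the chromosomal passenger complex, split without overlap as well, by 0.09 and 0.02. Birc5 (survivin), a partner of Aurkb, had the same order of set means with arrays that overlapped by 0.01.

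The spindle checkpoint genes divided into both behaviours. Cdc20, the activator of the anaphase-promoting complex, had set means of 9.53, 9.52 and 9.94 in the IgG sets and 9.91, 10.08 and 9.41 in the E2 sets, without overlap between arrays. Bub1b had the same order. Bub1, a checkpoint kinase, instead had 9.54, 9.41 and 9.55 in the IgG sets and 8.93, 9.20 and 9.37 in the E2 sets. Ttk (Mps1, the kinase at the top of the checkpoint) was lowest in E2 1 too, at 7.82 against 8.13 to 8.40 in the other sets, and so was Mad2l1, which varied by 0.20.

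The kinetochore and motor genes held the member with the widest range of set means. Cenpe, a kinetochore motor, had set means of 8.60, 8.44 and 9.05 in IgG 1 to IgG 3, 8.51 in E2 2 and 8.22 in E2 3. E2 1 was lowest, and within it the arrays ran from 7.03 at 1g and 7.84 at 2g to 8.55 at ug and 8.59 in the incubator. Cenpf and Kif11, the motor that separates the spindle poles, shared the high value in IgG 3. Kif20a, a motor of cytokinesis, followed Plk1 instead, at 10.67 to 10.92 on the arrays of IgG 1, IgG 2 and E2 3 and 11.12 to 11.38 on the others, and Kif23 had the same order of set means. Top2a, which untangles chromosomes, ran from 10.70 in E2 1 to 11.17 in IgG 3. Mki67, the proliferation marker Ki-67, ran from 9.89 in E2 1 to 10.58 in IgG 3.

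The mitotic members are described here as 2 patterns, the 13 that shared an order and the 8 that were left. The 13 with IgG 3, E2 1 and E2 2 highest were Ccna2, Ccnb2, Cdk1, Cdc25c, Aurka, Aurkb, Plk1, Nek2, Birc5, Bub1b, Cdc20, Kif20a and Kif23. In 9 of them (not Cdk1, Birc5, Bub1b or Kif23) every array of those sets lay above every other array. That is 42.9% of the 21 measured mitotic members, against 3.93% of all genes. Over all genes, 2452 took the order of these 13, and 570 of those split without overlap. The other 8 mitotic members (Bub1, Mad2l1, Ttk, Cenpe, Cenpf, Kif11, Top2a and Mki67) form the second pattern, but they did not share one order of their 3 highest sets. They were all highest in IgG 3, as were Ccna2, Nek2 and Kif23 of the first pattern. Of the 8, 7 were lowest in E2 1, Kif11 being lowest in E2 3. CHR letters were found in 7 of the 9 windows available for the first pattern and in 6 of the 8 for the second, so this motif did not separate them.

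**Figure D4:**
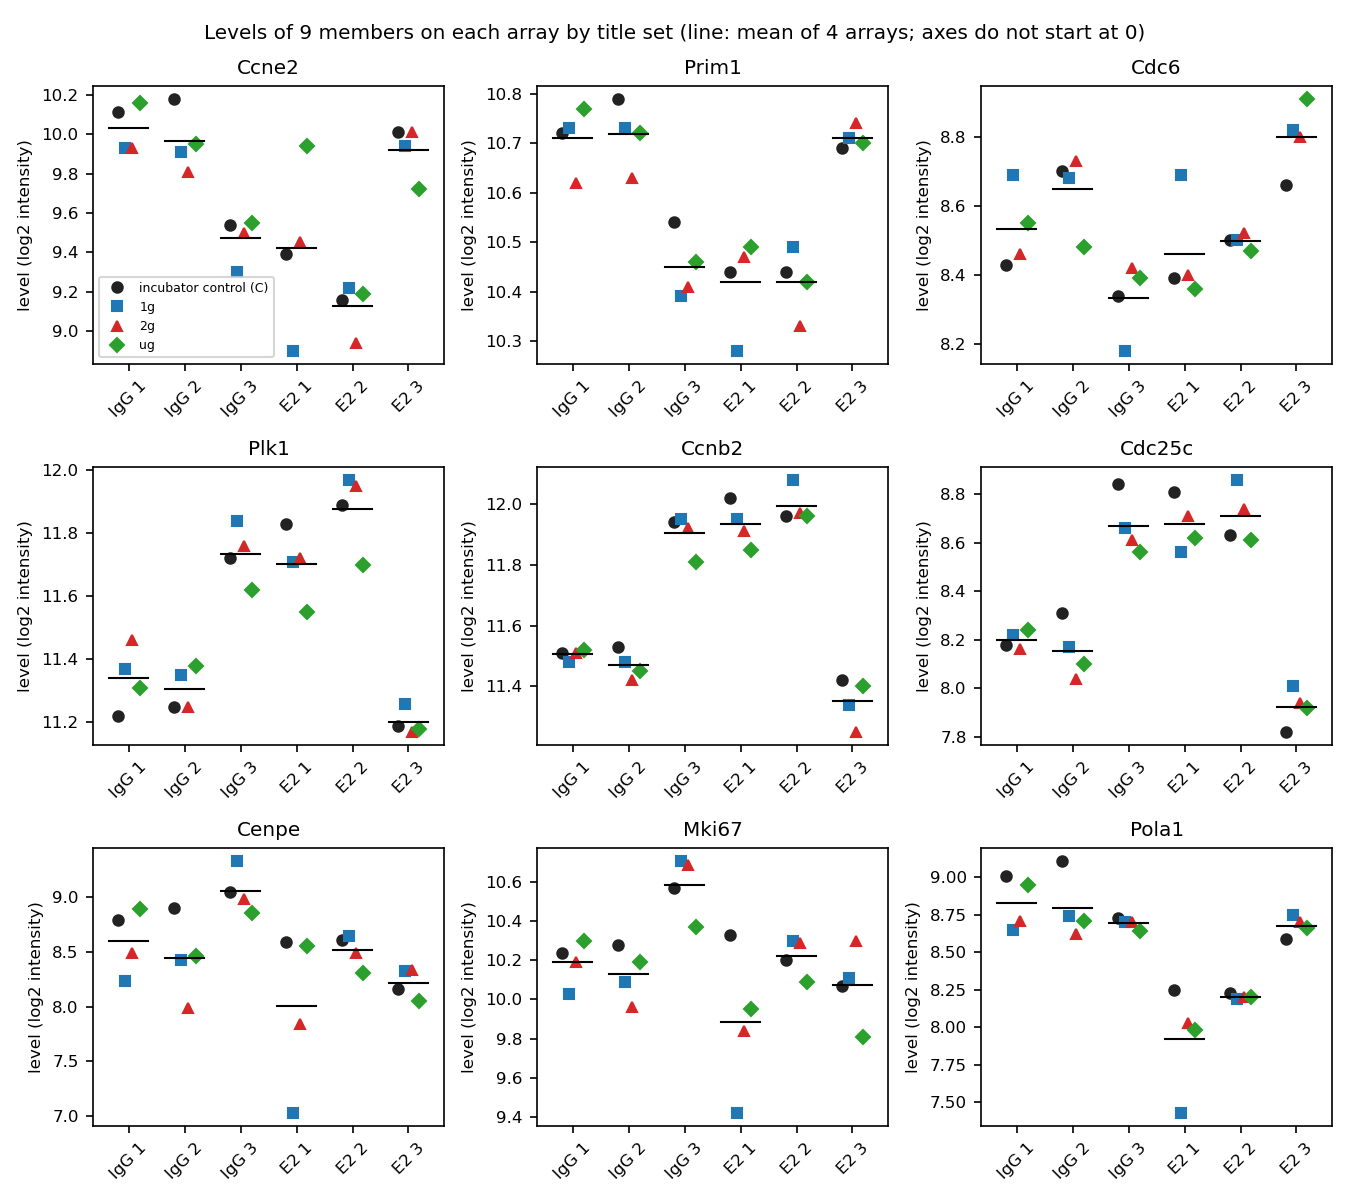
Levels (log2 intensity) of 9 members on each array by title set, with a line at the set mean. Ccne2, Prim1 and Cdc6 have higher set means in IgG 1, IgG 2 and E2 3, with overlapping arrays for Ccne2 and Cdc6. Plk1, Ccnb2 and Cdc25c are higher in IgG 3, E2 1 and E2 2. Cenpe, Mki67 and Pola1 are lowest in E2 1, where the 1g array lies below the other 3.

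The second pattern rests in part on 1 array. All 8 of these genes had their lowest value of the 24 arrays on the E2 1 array at 1g, where 12.1% of all genes had theirs, the highest such share of any array. Without that array 5 of the 8 (Bub1, Mad2l1, Ttk, Top2a and Mki67) were still lowest in E2 1. Cenpe and Kif11 were then lowest in E2 3 and Cenpf in E2 2, and Cenpe stood at 8.33 in E2 1. Pola1 was lowest in E2 1 with or without it (8.09 without). All 13 genes of the first pattern kept their 3 highest sets without this array.

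Other genes of the cell cycle were read in the same way. Of 62 other mitotic genes measured, 33 had IgG 3, E2 1 and E2 2 highest (16.9% of all genes did) and 15 had the 3 IgG sets highest (12.4% of all genes). Every array of IgG 3, E2 1 and E2 2 lay above every other in 15 (24.2%), against 3.93% of all genes. Of 51 other replication genes, 23 had IgG 1, IgG 2 and E2 3 highest (20.1% of all genes did) and 5 (9.8%) split that way without overlap, against 4.11% of all genes. Of 33 cell cycle inhibitors, pocket proteins and other G1 genes, 8 took the mitotic order and 7 the S-phase order. Bone markers also took sides with the sets. Of 7 that passed the filter, 4 took the mitotic order, 1 the S-phase order and 2 other orders. Gja1 was one of the 4, with set means of 11.56, 11.50 and 11.93 in the IgG sets and 11.82, 11.86 and 11.42 in the E2 sets. Pdpn took the S-phase order over a narrower range, at 12.80, 12.74 and 12.66 in the IgG sets and 12.69, 12.56 and 12.73 in the E2 sets. Of 8 macrophage markers 4 did not pass the filter (Adgre1, Ptprc, Aif1 and Itgam), 3 took the S-phase order (Cd68, Lyz2 and Csf1r) and 1 the mitotic order (Cd14). Cd68, a lysosomal protein, averaged 9.12, 9.14 and 9.14 in IgG 1, IgG 2 and E2 3 and 8.09 to 8.26 elsewhere. Lyz2, lysozyme, averaged 7.93, 8.11 and 7.92 against 7.42 to 7.57, and Csf1r, a growth factor receptor of macrophages, 6.99 to 7.06 against 6.72 to 6.90. Cd14 ran the opposite way (8.27 to 8.58 against 9.15 to 9.58). The part of these differences in the members' orders was not tested.

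Between environments, no member passed the test in any of the 12 comparisons between positions within an antibody with limma fitted on the 8 group means (adjusted p over all 14489 genes under 0.05, two-sided), where 0% of all genes passed. At an unadjusted p under 0.05 each held 0 or 1 member of 44. Of all genes 6.11%, 8.78% and 5.16% had such a p at IgG 1g, 2g and ug against the incubator, and 3.13%, 1.97% and 4.22% at the same positions with Cx43(E2). Between positions the shares were 1.79%, 1.12% and 0.711% for IgG 2g against 1g, ug against 1g and ug against 2g, and 2.46%, 3.54% and 3.82% for Cx43(E2). With the title set as a block, which takes out the differences described above, 0.0483% of all genes and no member passed at IgG 1g, and no gene passed in the other 11 comparisons.

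Rrm2 was the one member called in the fits over all 24 arrays. In the IgG arm it read 12.61, 12.59 and 12.60 in the incubator, 12.49, 12.54 and 12.42 at 1g, 12.43, 12.45 and 12.48 at 2g, and 12.49, 12.48 and 12.40 at ug. All 3 incubator arrays lay above all 9 platform arrays. The mean of the 3 positions was lower than the incubator by a log2 change of -0.13 ± 0.03 (SE, 95% interval -0.20 to -0.07). This did not pass in limma without a block (adjusted p = 0.309) and passed with the block (adjusted p = 0.0329), where 0.704% of all genes passed. The blocked call was lost when any one IgG set was left out (adjusted p = 0.132 to 0.4), with no trend in the variance prior (adjusted p = 0.108) and without E2 2 (adjusted p = 0.0637). Without the E2 1 array at 1g, Rrm2 and Kif23 passed with the block (adjusted p = 0.0139 and 0.0374), where 4.67% of all genes passed.

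In the E2 arm Rrm2 read 12.50, 12.48 and 12.41 in the incubator, 12.47, 12.52 and 12.48 at 1g, 12.48, 12.42 and 12.36 at 2g and 12.44, 12.47 and 12.45 at ug, so the groups overlapped. The difference between the arms in the platform effect was 0.12 ± 0.05 and did not pass (limma adjusted p = 0.646, 0.308 with the block), so the arms are not shown to differ. Kif23, a motor of cytokinesis, came closest in the mean over both arms, at -0.14 ± 0.07 (limma adjusted p = 0.783, 0.0693 with the block), where 0.669% of all genes and no member passed with the block and 3 members had an unadjusted p under 0.05 without it, where 6.19% of all genes did.

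**Figure D5:**
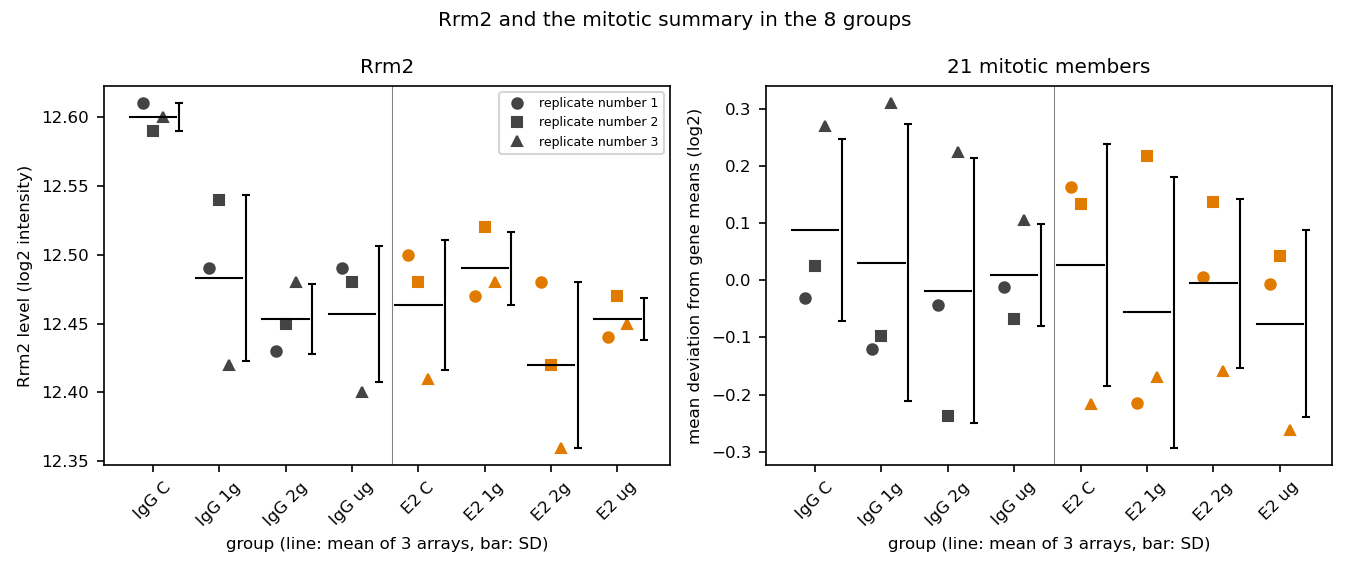
Left, Rrm2 level (log2 intensity) on each array of the 8 groups; right, mean deviation (log2) of the 21 mitotic members; lines are means of 3 arrays and bars their SD, with symbols for the replicate number. The 3 IgG incubator arrays (12.59 to 12.61) lie above all other Rrm2 values, and in the right panel the arrays of a group spread more widely than the group means differ.

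Mitotic members were lower on the platform than in the incubator more often than all genes at some positions, none of them by a difference that passed. In the IgG arm 16, 16 and 19 of 21 were lower at 1g, 2g and ug, with median log2 changes of -0.06, -0.09 and -0.07. Of all genes 45.8%, 49.8% and 50.8% were lower. In the E2 arm 14, 12 and 19 of 21 were lower, with medians of -0.03, -0.01 and -0.11, against 57.4%, 56.4% and 60.7% of all genes, so that the members' share at E2 2g (57.1%) was near that of all genes. Without the E2 1 array at 1g, 10 of 21 were lower at E2 1g, with a median of 0.00. The 3 positions of an arm share its incubator arrays, so these counts are not independent. After quantile normalization 13, 16 and 14 of 21 were lower at IgG 1g, 2g and ug, with medians of -0.03, -0.05 and -0.04, against 43.6%, 43.2% and 47.9% of all genes. In the E2 arm they were 15, 13 and 17, with medians of -0.05, -0.01 and -0.11, against 46.8%, 53.9% and 52.6%. The rows of members are bright (median intensity 10.60 on the log2 scale, against 8.41 over all genes tested), which is a property of the rows and no comparison of RNA amounts between genes. Among the 7244 genes brighter than the median, 56%, 63.9% and 65% were lower at IgG 1g, 2g and ug and 45.2%, 50.2% and 58.7% at E2 1g, 2g and ug.

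By title set, the mitotic mean at ug minus the incubator was 0.02, -0.09 and -0.16 in IgG 1 to IgG 3 and -0.17, -0.09 and -0.05 in E2 1 to E2 3. It was thus below 0 in 5 of 6 sets. As given above, 65% and 58.7% of genes brighter than the median were also lower at IgG ug and E2 ug. At 1g the mitotic mean minus the incubator was -0.38, 0.08 and 0.05 in the E2 sets, so the lower values there came from E2 1 and its array that stood apart. The S-phase mean at ug minus the incubator stayed between -0.07 and 0.05 in all 6 sets. At 2g the S-phase mean minus the incubator was -0.07, -0.07 and -0.02 in IgG 1 to IgG 3 and 0.03, -0.04 and 0.01 in E2 1 to E2 3. The mitotic mean there was -0.01, -0.26 and -0.05 in the IgG sets and -0.16, 0.00 and 0.06 in the E2 sets. At E2 ug, with the block, 6 mitotic members (Aurka, Aurkb, Plk1, Kif20a, Kif23 and Top2a) had lower values at an unadjusted p under 0.05, where 10.2% of all genes had such a p, and none passed adjustment (lowest adjusted p = 0.313). At IgG ug, with the block, 2 mitotic members (Nek2 and Kif23) had lower values at such a p, where 10.9% of all genes had one. There Aurka, Plk1, Aurkb and Kif20a had log2 changes of 0.01, 0.03, -0.02 and -0.03. Lower values at such a p were not particular to ug. At IgG 2g, with the block, 3 mitotic members (Cdc25c, Mad2l1 and Kif23) had them. So did Gins1, Rfc4, Pola1, Prim1, Rrm2 and Tyms of the S-phase members. No gene passed adjustment there (lowest adjusted p of a member 0.0855, limma, Rrm2), and the share of all genes with such a p is not given here.

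Of the 62 other mitotic genes, 51 were lower at IgG ug (median -0.09) and 52 at E2 ug (median -0.08), and none passed. Of the 51 other replication genes 38 and 30 were lower, with medians of -0.04 and -0.02. Of the 33 inhibitors and other G1 genes 18 and 17 were lower, with medians of 0.00 in both. Of all genes 50.8% were lower at IgG ug and 60.7% at E2 ug, and of the brighter genes 65% and 58.7%. The replication count at E2 ug and both G1 counts were thus near or below the share of all genes. None of the genes on these lists passed in limma without the block. At an unadjusted p under 0.05 there were 0 other mitotic, 2 other replication and 0 G1 genes at IgG ug, where 5.16% of all genes had such a p. At E2 ug there were 0, 1 and 3, where 4.22% of all genes did.

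The question of the antibody was asked at each environment. Cx43(E2) against IgG in the incubator was the one comparison in which limma without a block called genes, 2.92% of all tested, and no member was among them. At an unadjusted p under 0.05 there were 3 members, where 29.9% of all genes had such a p. The nearest was Cdk4, the kinase partner of cyclin D1. It read 13.34, 13.33 and 13.24 with IgG and 13.14, 13.17 and 13.16 with Cx43(E2), without overlap, a log2 difference of -0.15 ± 0.04 (adjusted p = 0.0574, limma). Rrm2 followed at -0.13 ± 0.04 (adjusted p = 0.0592), also without overlap, since its IgG arrays are the ones given above.

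Pola1 read 9.01, 9.11 and 8.73 with IgG and 8.25, 8.23 and 8.59 with Cx43(E2) in the incubator, a difference of -0.60 ± 0.23 (adjusted p = 0.107). Its E2 3 array lay close to the IgG 3 array while the others stood apart. Without the E2 3 arrays Pola1 passed (-0.71, adjusted p = 0.0388), as did Pcna, where 4.07% of all genes did. Cdk4 passed without IgG 3 (-0.18, adjusted p = 0.0355), where 5.16% of all genes passed, and Rrm2 without E2 1 (-0.15, adjusted p = 0.0426), where 9.35% did. Without E2 3, Cx43(E2) is left with E2 1 and E2 2, and without IgG 3, IgG is left with IgG 1 and IgG 2. Each pair lies on a single side of the set split described above, so these fits tie the antibody more closely to that split. Pcna and Cdk4 had the set order of the S-phase genes. The E2 1 array at 1g enters this comparison through the shared spread alone. Without it the differences stayed at -0.15 for Cdk4, -0.13 for Rrm2 and -0.60 for Pola1 and all 3 passed (adjusted p = 0.0412, 0.0439 and 0.0435), where 11% of all genes passed. In the fit of all 24 arrays, 3 genes of the other lists were called, all lower with Cx43(E2). They were Zwilch (-0.29 ± 0.08, a kinetochore protein), Shcbp1 (-0.54 ± 0.15, a protein of the midbody) and Tfdp2 (-0.40 ± 0.08, a partner of E2F factors). The lists held 62 other mitotic genes, 51 other replication genes and 33 inhibitors and other G1 genes. Of all genes 2.92% were called there, so over the 3 lists genes were not called more often than over all genes.

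At 1g, 2g and ug no gene was called between the antibodies, and 4, 0 and 2 members had an unadjusted p under 0.05, where 12.5%, 4.32% and 12.9% of all genes did. Pola1 differed by -0.58 ± 0.23 at 1g (adjusted p = 0.34). This value rests on the E2 1 array that stood apart: without that array it was -0.23 ± 0.20 (adjusted p = 1), and without the E2 3 arrays, which leaves it as 1 of 2, it was -0.89 and passed (adjusted p = 0.0208). Top2a had differences of -0.24 ± 0.12, -0.28 ± 0.12, -0.13 ± 0.12 and -0.30 ± 0.12 at C, 1g, 2g and ug, and the 1g value was -0.12 ± 0.11 without the E2 1 array at 1g. Averaged over the 4 environments of a set, so that each set counts once, Top2a was at 11.08 with IgG and 10.84 with Cx43(E2), a difference of -0.24 ± 0.08 (limma, adjusted p = 0.172, n = 3 sets per antibody). No gene passed in that test and 5 members, Top2a, Bub1, Pola1, Cenpf and Cenpe, had an unadjusted p under 0.05, all lower with Cx43(E2), where 21.6% of all genes did. Without the E2 1 array at 1g, Top2a stood at -0.21 ± 0.07 (adjusted p = 0.237), and Top2a, Bub1, Pola1 and Ttk had such a p, where 17.4% of all genes did.

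The G1 pair took the order of the S-phase genes within a narrow range. Ccnd1 (cyclin D1) had set means of 11.57, 11.62 and 11.56 in the IgG sets and 11.54, 11.48 and 11.66 in the E2 sets. Cdk4 had 13.30, 13.31 and 13.20 in the IgG sets and 13.17, 13.20 and 13.23 in the E2 sets. Cdk4 at E2 2g was 0.10 ± 0.04 above the E2 incubator (adjusted p = 1, 0.847 with the block), and the difference of this effect from that in the IgG arm was 0.14 ± 0.06 (adjusted p = 0.811, 0.314 with the block).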

How the data were processed

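The deposited table holds log2 intensities of 24 arrays. The scale was inferred from the numbers, which span 2.36 to 14.06 with medians per array from 6.48 to 6.65. MAS5 is the tool named for the authors' work, per the submitters' processing notes, without its role or version, and the scaling between arrays is not given in the sources used here. Of 35556 rows, 21789 carried exactly 1 gene symbol in the probe table, 1621 several and 12146 none. A row was kept where at least 3 arrays had it at or above their 40th percentile, and each gene took its brightest row. The number of arrays limits the precision.

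limma 3.58.1 in R 4.3.3 fitted 8 group means without a block, with a variance trend. Tests were two-sided, adjusted after Benjamini and Hochberg over 14489 genes, with a threshold of 0.05. Within an arm the 36 pairs of arrays with one number all had correlated deviations from their group means (0.195 to 0.812), against 23 of 72 pairs with other numbers above 0.1. The title set was therefore taken as a block, on the evidence of the data alone. It cannot be fitted between antibodies in one environment. Deviations from a mean of 3 arrays cancel within a group, which pushes pairs with other numbers towards negative correlation (median -0.452). Part of this contrast was thus fixed in advance. Across the arms, 0 of 48 pairs with one number and 64 of 96 with other numbers were above 0.1. Set orders are described and not tested.

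Members, gene lists, motif letters and comparisons were chosen with earlier results of these data known. Any member may be named. Values are given in full for called members, for 2 members of each role with the widest range of set means, and for Pcna, Mki67, Cdk1, Ccnd1 and Cdk4. Other pathway genes are named where called. Alternatives tried were other blocks, quantile normalization, no filter, averaged rows, no trend, fits of the compared arrays alone, and each title set left out. The code was tested on simulated data.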

Additional observations from a re-analysis of the deposited data

How the results depend on the processing

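Of 625 values recomputed under alternatives for counts of members called and set summaries, 609 stayed on the same side of the threshold or within the spread, and no result reversed. With the replicate block within arm the count for the IgG platform mean against the incubator went from 0 to 1 member (Rrm2, adjusted p = 0.0329), as it did with the title set as a random block (1, adjusted p = 0.0479), with the block and quantile normalization (1, adjusted p = 0.037) and with the block and no filter (1, adjusted p = 0.0426). Of all genes 0.704%, 0.138%, 0.559% and 0.336% passed in these 4 fits. The block with one set left out gave 0 to 3 of 44 members there (without E2 1 Pola1, Rrm2 and Kif23, where 5.6% of all genes passed, and without E2 3 Rrm2, where 0.973% did). It gave 0 to 1 for IgG 2g against the incubator (Rrm2 without E2 1, where 1.92% of all genes passed) and 0 to 2 for E2 ug against 2g (Mcm3 and Cdt1 without E2 1, 0.566% of all genes). Without a block, leaving out one set gave 0 to 2 members for Cx43(E2) against IgG in the incubator (4.07% to 9.35% of all genes where a member passed). It gave 0 to 1 at 1g and 0 to 1 on set means (Pola1 without E2 3 in both, with 5.34% and 5.08% of all genes). Leaving out E2 3 or IgG 3 ties the antibody more closely to the split of the sets, as given above. Without the E2 1 array at 1g alone, 3 members passed between the antibodies in the incubator (11% of all genes), and with the block 2 passed for the IgG platform mean (4.67%) and 1, Rrm2, for IgG 2g (1.71%). These block combinations, the fits without that array and the set orders without one environment were chosen after seeing the data. The block changed no other call of a member. All 13 mitotic members with the order kept it under the 6 alternatives tried, as did 11 of the 12 S-phase members. Cdc6 lost the S-phase order under at least 1 of them and Pola1 took it under at least 1, for counts of 11 to 13. The cause of each change was not tested. Groups of 3 arrays limit what can be called, and dim rows were not analysed.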
